A study of Saccharomyces cerevisiae with 4 samples.

Results

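The members described here were 292 mostly short open reading frames (ORFs) of Saccharomyces cerevisiae whose systematic names end in -A. Such a suffix marks an ORF that entered the annotation after its neighbours had been numbered. Of 7445 features in the count table, 526 were ORFs with this ending and 309 of these had a summed raw count of 100 or more over the 4 libraries. The Gag and Gag-Pol ORFs of Ty retrotransposons (5 rows) and genes for cytosolic or mitochondrial ribosomal proteins (12 rows) were then left out, which gave the 292 members. They were thus selected on the raw counts of these same libraries, summed over both genotypes.

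The study compared 2 libraries of a strain in which TRF4 was replaced by the marker HphMX4 (trf4::HphMX4, written trf4Δ below) with 2 wild-type libraries. Both strains were of the W303 background and were grown at 25 °C in YPDA, a rich glucose medium, to an OD600 of 0.8. Total RNA was freed of ribosomal RNA and sequenced in pairs of 76 bases. The series is titled for the kinase Rio1 and centromeric RNA, and the 4 libraries address what the loss of Trf4 does to RNA levels. The labels do not say whether the libraries of a genotype came from separate cultures, so p-values measure the spread between these libraries, which may be technical. The RNA came from whole cultures, in which a change in the share of cells that express a gene and a change in RNA per cell cannot be told apart.

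Trf4, encoded by TRF4 (also PAP2), is the noncanonical poly(A) polymerase of TRAMP. This nuclear complex adds short tails to nuclear RNAs, such as unstable intergenic and antisense transcripts and precursors of small nucleolar RNAs (snoRNAs), and passes them to the nuclear exosome for trimming or decay. ORFs with the -A suffix are a mixed set. Some encode well-studied small proteins, among them the small Tim chaperones of mitochondrial import, subunits of the ATP synthase, DASH complex proteins of the kinetochore and cell wall mannoproteins. Others are predicted reading frames with no gene symbol.

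Of the 292 members, 215 were found in the RefSeq gene table of assembly R64, 110 with a gene symbol and 105 without. The other 77 are named here by their ORF names only. The label small fits most members and not all. The coding length of the 215 ranged from 51 to 1593 bases with a median of 222 bases, and 35 were longer than 300 bases. Just inside the count limit were YAL056C-A with a summed count of 106 and YFR012W-A and YKL106C-A with 107 each. Just outside it were YFL013W-A with 87 and YLR406C-A with 81. YFL013W-A had 54 and 21 counts in trf4Δ and 7 and 5 counts in the wild type, and YLR406C-A had 29 and 35 counts in trf4Δ and 7 and 10 counts in the wild type.

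Library totals ranged from 53516242 to 57964567 counts. The deleted gene PAP2 had 21 and 40 counts in trf4Δ and 8102 and 8468 counts in the wild type, a log2 fold change of -8.31. The a-specific mating genes MFA1, MFA2, STE2, BAR1 and AGA2 had 1657 to 21998 counts in every library, while the alpha-specific pheromone gene MF(ALPHA)1 had 8 to 30. Other alpha-specific genes were not that low. MF(ALPHA)2 had 299 and 387 counts in trf4Δ and 225 and 252 counts in the wild type. SAG1 had 1973 and 2068 counts in trf4Δ, above MFA1 with 1657 and 1809, and 1145 and 1284 counts in the wild type. The alpha-specific receptor gene STE3 had 246 and 408 counts in trf4Δ and 64 and 55 counts in the wild type.

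The ORFs with the largest increases, among called members that averaged 50 or more counts and whose genotypes did not overlap, were mostly short frames with no gene symbol, and 5 of them are printed so that the reads behind the values can be placed. All sequences are from RefSeq assembly R64, which is the reference strain and not W303, and are written 5′ to 3′ on the strand of the ORF. YJL047C-A lies at chrX:349044-349178 on the minus strand and its capitals mark the bases it shares with the snoRNA gene SNR60. In the other 4, capitals mark the start and stop codons. These are YBR200W-A at chrII:622983-623147 on the plus strand, YDR034C-A at chrIV:520516-520692 on the minus strand, YJL052C-A at chrX:337884-338003 on the minus strand, and YJR151W-A at chrX:717580-717630 on the plus strand, which at 51 bases was the shortest member.
YJL047C-A: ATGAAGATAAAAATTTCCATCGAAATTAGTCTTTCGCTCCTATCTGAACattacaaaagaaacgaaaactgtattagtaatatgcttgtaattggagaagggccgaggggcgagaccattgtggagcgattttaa
YBR200W-A: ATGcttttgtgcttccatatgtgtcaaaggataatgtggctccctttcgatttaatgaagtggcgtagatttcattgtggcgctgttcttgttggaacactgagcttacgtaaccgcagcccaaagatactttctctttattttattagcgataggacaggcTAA
YDR034C-A: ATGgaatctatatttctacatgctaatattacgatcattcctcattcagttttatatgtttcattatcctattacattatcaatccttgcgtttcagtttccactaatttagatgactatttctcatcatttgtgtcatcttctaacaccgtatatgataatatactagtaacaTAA
YJL052C-A: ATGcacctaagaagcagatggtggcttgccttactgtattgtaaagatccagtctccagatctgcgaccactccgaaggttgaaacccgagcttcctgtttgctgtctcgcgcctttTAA
YJR151W-A: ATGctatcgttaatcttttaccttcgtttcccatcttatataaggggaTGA

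Across the members, more ORFs were higher than lower in trf4Δ. The test was edgeR's quasi-likelihood F test on the whole table, with p-values adjusted by Benjamini-Hochberg for the 6372 features tested and a threshold of 0.05. With trf4Δ set against the wild type, 138 of the 292 members (47.3%) were called higher and 41 (14.0%) were called lower, and 113 did not pass. Of all features tested, 60.1% passed, 31.3% as higher and 28.9% as lower. The median log2 fold change, trf4Δ over wild type, was 0.54 for the members and 0.01 for all features. An increase of at least 2-fold was called for 104 members and one of at least 4-fold for 47, against 15.5% and 5.4% of all features. A decrease of at least 2-fold was called for 7 members, against 2.4% of all features. In 232 members the libraries of the genotypes did not overlap, 166 of them with trf4Δ higher and 66 with trf4Δ lower, and this held for 81.9% of all features (41.8% higher, 40.2% lower).

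The direction of change followed the level of the ORF, in members and in other features alike. Levels are given in CPM, counts per 1000000 of the library size after TMM scaling. In the range under 1 CPM, 24 of 41 members were called higher and 0 lower. Their median log2 fold change was 1.55, and that of the 348 features in this range was 1.23. Of the 138 members between 1 and 10 CPM, 56.5% were higher and 2.90% lower, against 60.5% and 2.42% of the 785 features in that range. Between 10 and 100 CPM, 34.8% of 89 members were higher and 29.2% lower, against 33.7% and 22.5% of 3122 features. At 100 CPM or more the order turned, with 5 of 24 members higher and 11 lower, and the medians were -0.28 for the members and -0.29 for the 2117 features. Set beside the features of each range, the medians of the members lay close to the background above 1 CPM. The lowest range is not of like level, since members needed a summed count of 100 and other features did not. Among the 187 features under 1 CPM that met this limit, 51.9% were higher with a median log2 fold change of 1.10, against 58.5% of the members. The members' own median level was 5.42 CPM.

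**Figure D1:**
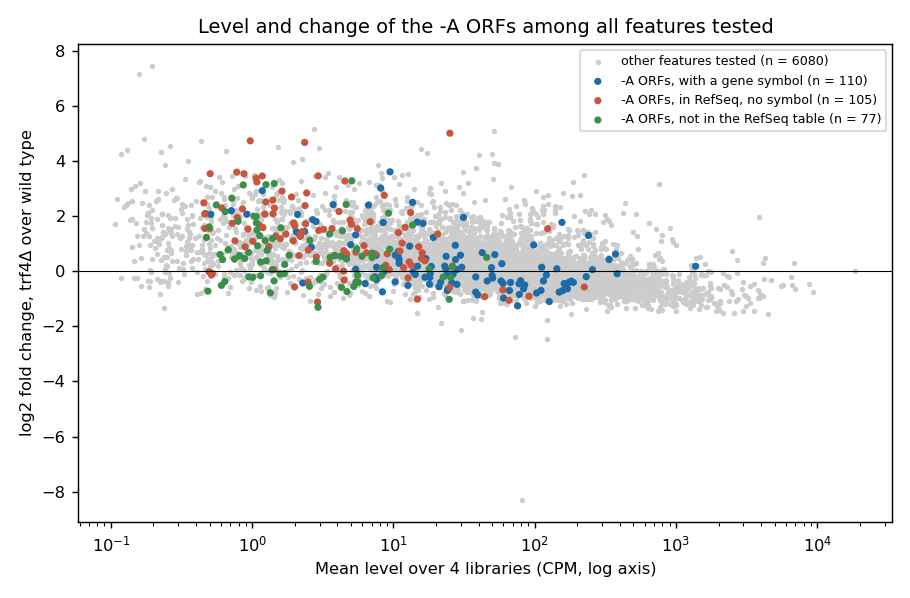
Each point is a feature, with its mean level over the 4 libraries (CPM, log axis) against the log2 fold change of trf4Δ over wild type, and the 292 -A ORFs are coloured by whether RefSeq gives them a symbol. Members without a symbol lie mostly at low levels and above 0, while those with a symbol spread over higher levels and both directions.

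**Figure D2:**
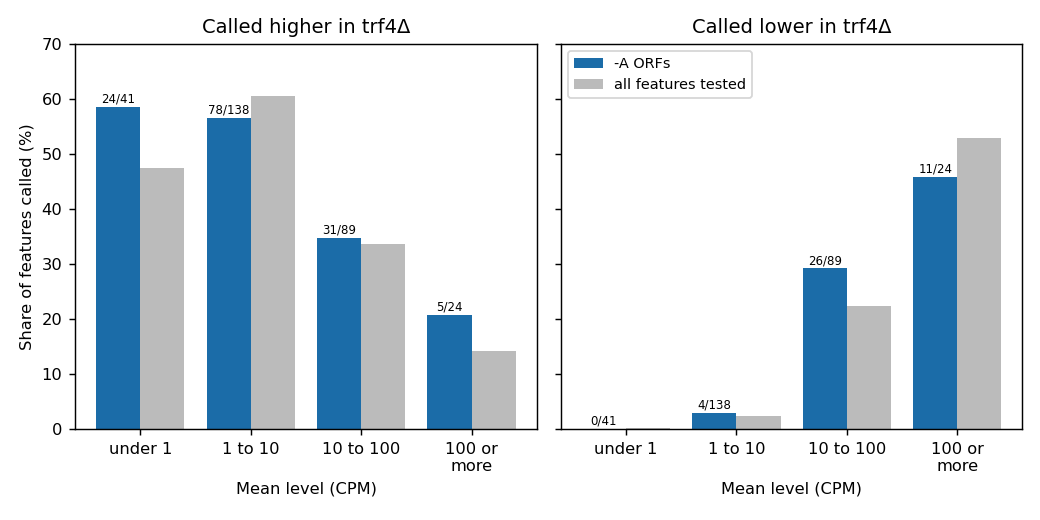
Bars give the percentage of -A ORFs (blue) and of all features tested (grey) called higher or lower in trf4Δ, by mean level in CPM, and the labels give the members called of those in each range. In both sets increases were most frequent below 10 CPM, and at 100 CPM or more decreases (11 of 24 members) outnumbered increases (5 of 24).

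The limit on the summed count admits an ORF that is nearly silent in one genotype if it is high in the other, and such an ORF had to differ. There were 39 members with fewer than 50 counts over both wild-type libraries, of which 37 were called higher, 27 of them at least 4-fold. The reverse case held for 1 member, YAL056C-A, with 14 and 30 counts in trf4Δ and 34 and 28 counts in the wild type, which was not called. Among the 252 members with 50 or more counts in each genotype, 101 were higher and 41 lower. The median log2 fold change of this subset was 0.38. That subset was chosen after the data were seen. The increases called at 2-fold or more numbered 67 in this subset.

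The classes of annotation differed in level, and their counts stand beside the 31.3% of all features called higher and 28.9% called lower, or the 60.5% and 2.42% of features between 1 and 10 CPM. The 110 members with a gene symbol had a median level of 83.3 CPM per kilobase of coding sequence, and 42 were higher and 30 lower in trf4Δ. Their median log2 fold change was 0.06. The 105 ORFs in RefSeq without a symbol had a median level of 18.8 CPM per kilobase (2.90 CPM without regard to length), and 69 were higher and 8 lower. Here the median fold change was 1.27 on the log2 scale. For the 77 ORFs not found in RefSeq it was 0.50, with 27 called higher and 3 called lower. By length, 26 of the 40 members of up to 150 bases were higher and 3 lower, and among the 140 of over 150 and up to 300 bases 68 were higher and 28 lower. Of the 35 longer than 300 bases, 17 were higher and 7 lower, the same shares as in the middle class. These groups differ in level as well as in annotation and length, and their parts were not tested separately.

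The largest increase was that of YJL047C-A, the ORF that shares its first 49 bases with the 3′ end of SNR60. It had 2866 and 2989 counts (47.6 and 49.7 CPM) in trf4Δ and 77 and 78 counts (1.51 and 1.52 CPM) in the wild type. The libraries of each genotype lay close together and far from those of the other, and the log2 fold change was 5.00 (SE 0.13, adjusted p = 1.10e-06). SNR60, a box C/D snoRNA gene of 104 bases at chrX:349130-349233 on the same strand, guides methylation of ribosomal RNA. It had 166 and 245 counts in trf4Δ and 344 and 298 counts in the wild type (log2 fold change -0.88, SE 0.25, adjusted p = 0.0166). The snoRNA and the ORF that follows from its last bases thus moved in opposite directions. How reads in the 49 shared bases were counted is not given in the sources used here. The flanking coding genes on the same strand were UBX6, 406 bases away (log2 fold change 0.99), and RTT101, 401 bases away (0.12, adjusted p = 0.28).

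YDR034C-A, which overlaps a long terminal repeat of Ty1, had 269 and 276 counts in trf4Δ and 8 and 10 counts in the wild type (log2 fold change 4.67, SE 0.32, adjusted p = 3.24e-05). YBR200W-A had 84 and 141 counts in trf4Δ and 6 and 1 counts in the wild type (4.73, SE 0.61, adjusted p = 0.000462). Its fold rests on only 7 wild-type counts and was 6.43 without wild-type library 1 and 3.97 without wild-type library 2, on the log2 scale. YJR151W-A, the frame of 51 bases, had 111 and 149 counts in trf4Δ and 9 and 11 counts in the wild type (3.45, SE 0.38, adjusted p = 0.000214). YCL048W-A had 120 and 114 counts in trf4Δ and 12 and 7 counts in the wild type (3.37, SE 0.39, adjusted p = 0.000261). In each of these ORFs both trf4Δ libraries lay above both wild-type libraries, which was a condition for naming them. YDR034C-A, YBR200W-A, YJR151W-A and YCL048W-A had few wild-type counts. They met the limit on the summed count through trf4Δ and so had to differ. The single gene with a symbol among the 8 largest increases under the limits for naming was EGO4. EGO4 had 870 and 1234 counts in trf4Δ and 85 and 62 counts in the wild type (3.60, SE 0.26, adjusted p = 3.55e-05).

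Some unnamed ORFs beside strongly increased genes were high in trf4Δ as well, and other large increases were not beside such genes. The nearest gene changed by 0.33 both for YBR200W-A (DER1) and for EGO4 (ARC35), on the log2 scale. Of the neighbours named next, TDH1 lies on the opposite strand, and RTC3 and SIP18 lie on the strand of their ORFs. YJL052C-A, 267 bases from TDH1, a gene for glyceraldehyde-3-phosphate dehydrogenase, had 107 and 87 counts in trf4Δ and 12 and 2 counts in the wild type (log2 fold change 3.53, SE 0.57, adjusted p = 0.0013), and TDH1 itself changed by 3.49. The value for YJL052C-A was 5.30 without wild-type library 1 and 2.77 without wild-type library 2. YHR086W-A had 314 and 334 counts in trf4Δ and 31 and 19 counts in the wild type (3.45, SE 0.31, adjusted p = 9.42e-05), and its neighbour RTC3, 427 bases away, changed by 2.48. YMR175W-A, named after its values were seen, lies 58 bases from SIP18, which encodes a desiccation-protective protein. It had 94 and 141 counts in trf4Δ and 9 and 12 counts in the wild type (3.23, SE 0.41), beside 2.19 for SIP18. With so few wild-type counts, YJL052C-A and YMR175W-A met the limit on the summed count through trf4Δ. Both therefore had to be higher in trf4Δ, whatever their neighbours did. Of 88 members called higher that had an annotated gene within 500 bases, the nearest gene was also higher for 47.7% and lower for 18.2%. For all 1415 located features called higher, the shares were 38.0% and 26.6%. Of 34 such members called lower, the nearest gene was lower for 38.2%, close to the 36.1% of all 1633 features called lower.

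The largest decreases, under the same limits, were smaller in size than the increases and included better-expressed genes. TOM5, a small subunit of the mitochondrial outer membrane translocase, had 1908 and 3462 counts in trf4Δ and 4862 and 6051 counts in the wild type (log2 fold change -1.26, SE 0.25, adjusted p = 0.00348). EFG1, needed for maturation of small-subunit ribosomal RNA, had 4840 and 4859 counts in trf4Δ and 8311 and 9387 counts in the wild type (-1.10, SE 0.09, adjusted p = 7.27e-05). YDL085C-A had 2275 and 2856 counts in trf4Δ and 4057 and 5019 counts in the wild type (-1.06, SE 0.14, adjusted p = 0.000578). The genotypes were apart in all of these genes, which was a condition for naming them. Among them were also 2 ORFs not found in RefSeq. YBR191W-A had 81 and 121 counts in trf4Δ and 234 and 192 counts in the wild type (-1.31, SE 0.29, adjusted p = 0.0054), and YER107W-A had 775 and 1194 counts in trf4Δ and 1799 and 1600 counts in the wild type (-1.02, SE 0.20, adjusted p = 0.00299).

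YMR242W-A, 76 bases from the ribosomal protein gene RPL20A, had 125 and 95 counts in trf4Δ and 260 and 146 counts in the wild type (log2 fold change -1.12, SE 0.34, adjusted p = 0.0218), and RPL20A changed by -1.20. This call was lost without trf4Δ library 1, trf4Δ library 2 or wild-type library 1, with adjusted p values of 0.0515, 0.107 and 0.22. Members beside a ribosomal protein gene did not always share its direction. YOR293C-A, named after its values were seen, was not called (0.54, adjusted p = 0.112) beside RPS10A (-1.06), and nor was YOL038C-A, named likewise (0.60, adjusted p = 0.0675), beside RPP2A (-0.88).

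**Figure D3:**
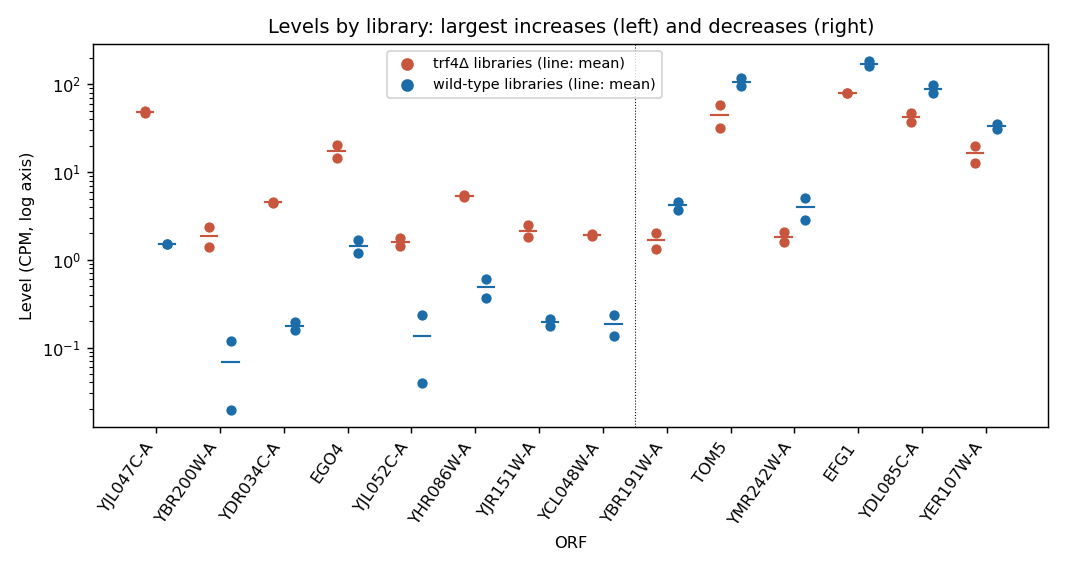
Points are the 4 libraries' levels (CPM, log axis) of the 8 members with the largest increases and the 6 with the largest decreases among those called that averaged 50 or more counts, trf4Δ left of wild type for each ORF, and lines are the means of 2 libraries. YJL047C-A stands at 47.6 and 49.7 CPM in trf4Δ and 1.51 and 1.52 CPM in the wild type, while the decreases on the right are near 2-fold.

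The RefSeq annotation places 10 members over another annotated gene, 3 on the same strand and 7 on the opposite strand. Whether the counting used strand is not given in the sources used here, so the reads of such a pair cannot be told apart with certainty. ECM12 shares 106 bases with YHR022C on the opposite strand. It had 364 and 395 counts in trf4Δ and 67 and 54 counts in the wild type (log2 fold change 2.41, SE 0.24, adjusted p = 0.000143), and YHR022C changed by 1.95. YDL022C-A shares 50 bases with DIA3 on the same strand, and the members of this pair changed alike, by 1.74 (SE 0.36, adjusted p = 0.00423) and 1.77. AUA1, named for ammonium uptake, lies over WWM1 for 167 bases and had 1959 and 1267 counts in trf4Δ and 724 and 452 counts in the wild type (1.22, SE 0.27, adjusted p = 0.00534), while WWM1 changed by 0.49. The AUA1 call was lost without trf4Δ library 1 (0.87, adjusted p = 0.0535).

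Other overlapping pairs were mixed. KTI11 shares 4 bases with YBL071C on the opposite strand, and both were lower (log2 fold changes -0.52 and -0.83). YMR316C-A lies over DIA1 for 174 bases on the opposite strand and changed by 1.08 without being called, beside 1.09 for DIA1. YGL041W-A (-0.45) and YGL041C-B (1.05), also on opposite strands, differed in sign, and neither passed. YER145C-A, over LSM5 for 239 bases on the opposite strand, had 156 and 165 counts in trf4Δ and 59 and 68 counts in the wild type (log2 fold change 1.10, SE 0.26, adjusted p = 0.00802, and 0.0734 without wild-type library 1), beside -0.46 for LSM5 (adjusted p = 0.159). YMR075C-A, of which 95.4% lies over RCO1 on the opposite strand, had 34 and 25 counts in trf4Δ and 30 and 21 counts in the wild type. Its log2 fold change was -0.03 (SE 0.41, adjusted p = 0.961), and the libraries overlapped. RCO1 did not pass either (-0.21, adjusted p = 0.246). Without the 10 overlapping members, 133 of the remaining 282 were higher and 40 lower.

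**Figure D4:**
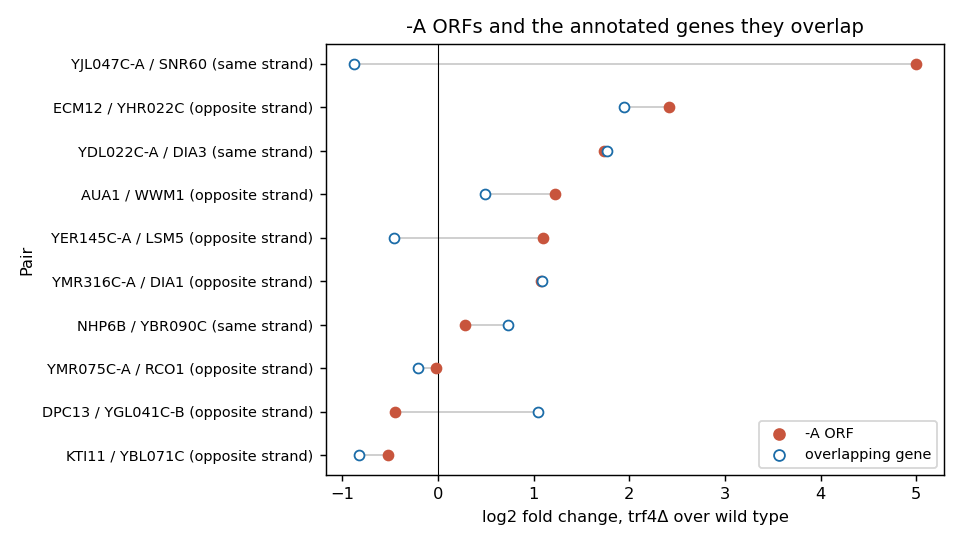
For each of the 10 pairs, the filled point is the log2 fold change (trf4Δ over wild type) of the -A ORF and the open point that of the annotated gene it overlaps, with the relative strand in the label. The points of YDL022C-A and DIA3 nearly coincide (1.74 and 1.77), whereas YJL047C-A and SNR60 lie on opposite sides of 0 (5.00 and -0.88).

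Increases were frequent near chromosome ends, in members and in other features. Of 10 members within 20 kb of a chromosome end, 9 were higher and 0 lower (median log2 fold change 1.92), and the ORF not called was YMR316C-A (1.08, SE 0.55, adjusted p = 0.123, and 2.43 with an adjusted p of 0.0109 without wild-type library 1). YMR316C-A lies over DIA1 for 174 bases on the opposite strand, and DIA1 changed by 1.09. Of the 205 members farther in, 102 were higher and 38 lower (median 0.54). Of all 204 located features within 20 kb of an end, 65.7% were higher and 5.39% lower, and of the 114 among them under 10 CPM 70.2% were higher and 0 lower. The 10 members had a median level of 1.43 CPM, and 5 of them, both examples below included, had fewer than 50 wild-type counts and so met the count limit through trf4Δ. Examples chosen after their values were seen were YGL258W-A, with 69 and 104 counts in trf4Δ and 7 and 5 counts in the wild type (3.59, SE 0.46, adjusted p = 0.000435), and YBR298C-A, between the maltose genes MAL31 and MAL32, with 59 and 53 counts in trf4Δ and 3 and 5 counts in the wild type (3.53, SE 0.48, adjusted p = 0.000584). Chromosome ends hold repeated sequence. Of the 215 located members, 6 had a window of 76 bases that occurs elsewhere in the genome, and YOL155W-A had such windows over 83.0% of its length, so that its counts (264 and 547 in trf4Δ, 57 and 97 in the wild type) and its log2 fold change (2.16, or 1.54 without trf4Δ library 2) are uncertain.

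From the members that encode proteins of known place or function, 72 were placed in 8 role lists, chosen with earlier results of these data known. The lists are not complete, since EFG1, NCW1 and HED1, for example, are in none of them. Counts by role therefore cover the listed members only. The groups differed in direction, and their counts are given beside the 31.3% of all features called higher and the 28.9% called lower. When libraries were scaled by total count alone, the median of all features moved to 0.34 and medians of lists moved up by about as much, so their signs are relative to the scaling.

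All 4 members of the list labelled stress-linked were higher in trf4Δ, also under every other scaling and without any single library. The label is loose, since a stress role is given here for DDR2 and HOR7 and not for DGR1 and SPO24. DDR2, a gene induced by many stresses, had 582 and 1158 counts in trf4Δ and 70 and 113 counts in the wild type (log2 fold change 3.01, SE 0.38, adjusted p = 0.000379). DGR1 had 201 and 206 counts in trf4Δ and 43 and 40 counts in the wild type (2.06, SE 0.27, adjusted p = 0.000453). SPO24, which encodes a small protein of sporulation, had 13899 and 15106 counts in trf4Δ and 3363 and 3875 counts in the wild type (1.77, SE 0.10, adjusted p = 1.96e-05). HOR7, named for its response to high osmolarity, was among the most abundant members and had 23929 and 17125 counts in trf4Δ and 7528 and 6707 counts in the wild type (1.29, SE 0.16, adjusted p = 0.000332). The list was small and its genotypes did not overlap for any of the 4 genes.

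The stress response element, bound by Msn2 and Msn4 in yeast, has the core CCCCT. The 300 bases before the start codon were searched for this core on both strands, where the other strand reads AGGGG, and overlapping matches were counted separately. DDR2 had 3 matches, HOR7 and SPO24 had 1 each and DGR1 had 0. The window of 30 bases around the match nearest the start is printed for the 3 genes with a match, with the core in capitals, on either strand, from R64 on the strand of the gene. It lies at chrXV:231913-231942 (minus strand, 175 bases before the start) for DDR2, at chrXIII:774489-774518 (plus strand, 251 bases) for HOR7 and at chrXVI:645753-645782 (plus strand, 185 bases) for SPO24.
DDR2: tgtcttttctcaCCCCTtatgggacatcaa
HOR7: tatttgggtaagCCCCTttctgttttcggc
SPO24: agagaactttagAGGGGgctcaattagcat

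Over all nuclear ORFs tested, 22.4% of upstream windows of the same length held the core. Among the members it was 24.7%, among members called higher 31.5% and among those called lower 15.8%. The shares for all nuclear ORFs called higher and lower were 33.3% and 14.4%, close to those of the members called in the same direction. A match describes the letters of the window and not a binding site.

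Members of the list of mitochondrial import and membrane organisation went the other way, with 0 of 11 higher and 7 lower. Among the 7 were ISD11 and RIM1, whose roles given below are neither import nor membrane organisation. The median log2 fold change of the list was -0.64. Under scaling by total count it was -0.32, and 4 were lower and 1 higher. Leaving out wild-type library 1 left 4 called lower. TIM8, TIM9 and TIM10 encode small chaperones that carry membrane proteins across the intermembrane space. TIM8 had 1991 and 2888 counts in trf4Δ and 4001 and 4160 counts in the wild type (-0.98, SE 0.16, adjusted p = 0.00156). TIM10 had 4365 and 4711 counts in trf4Δ and 7281 and 6088 counts in the wild type (-0.79, SE 0.11, adjusted p = 0.000687). TIM9 (-0.75, lost without either wild-type library), MRA1 (-0.70) and TOM5 were lower as well. Weaker cases were ISD11, an iron-sulfur cluster assembly protein, with 2817 and 5045 counts in trf4Δ and 4846 and 5546 counts in the wild type (-0.64, SE 0.24, adjusted p = 0.047), and RIM1, which binds single-stranded mitochondrial DNA (-0.36, SE 0.12, adjusted p = 0.0349). The ISD11 libraries of trf4Δ lay far apart, one of them just above the lower wild-type library in raw count, and both calls were lost on leaving out single libraries, with adjusted p values of 0.0649 to 0.15 for ISD11 and 0.0507 to 0.245 for RIM1. MIM2, MDM35, MIC10 and SOM1 did not pass, with log2 fold changes of -0.21 to 0.18.

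Proteins of the electron transport chain and ATP synthase moved in both directions, with 5 of 13 higher and 2 lower and a median of 0.06. STF1, which stabilises the inhibited ATP synthase, had 2012 and 3971 counts in trf4Δ and 543 and 776 counts in the wild type (log2 fold change 1.95, SE 0.31, adjusted p = 0.00123). SDH6, an assembly factor of succinate dehydrogenase, had 1276 and 1717 counts in trf4Δ and 369 and 396 counts in the wild type (1.73, SE 0.17, adjusted p = 0.000137). COX26 (0.96), MCO10 (0.67) and RCF3 (0.58, lost without trf4Δ or wild-type library 2) were also higher, MCO10 with 3133 and 3153 counts in trf4Δ and 1556 and 1795 counts in the wild type. The members called lower were the ATP synthase subunits ATP18 (-0.41, SE 0.13, adjusted p = 0.0272) and ATP19 (-0.45, SE 0.15, adjusted p = 0.0336). Both decreases were lost without trf4Δ or wild-type library 1, that of ATP19 also without wild-type library 2 (adjusted p = 0.0611 to 0.132), and under scaling by total count. QCR10 of the cytochrome bc complex (-0.35), TIM11, ATP synthase subunit e (-0.14), and the cytochrome oxidase assembly genes COX19, COA2 and COA3 (-0.13 to 0.06) did not pass.

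Among 16 members of the secretory pathway, vacuole and membranes, 4 were higher and 4 lower. The median log2 fold change was -0.23 and became 0.09 under scaling by total count. SFT1, a SNARE of the Golgi, had 7721 and 7885 counts in trf4Δ and 3330 and 3542 counts in the wild type (0.95, SE 0.09, adjusted p = 0.000101). SNA2 had 2091 and 2246 counts in trf4Δ and 958 and 966 counts in the wild type (0.94, SE 0.11, adjusted p = 0.000261). EGO4 was placed in this list too, and TSC3, which stimulates serine palmitoyltransferase, changed by 0.27 (SE 0.10, adjusted p = 0.0445, and 0.0519 to 0.174 under other settings or without 3 of the libraries). The members called lower were SBH2 of the protein translocation channel (-0.41, SE 0.08, adjusted p = 0.00377), PMP1, a proteolipid of the plasma membrane proton pump (-0.41, SE 0.12, adjusted p = 0.0175), the signal peptidase subunit SPC1 (-0.48, SE 0.14, adjusted p = 0.0197) and the oligosaccharyltransferase subunit OST5 (-0.36, SE 0.10, adjusted p = 0.0132). Of these 4 decreases 0 were called under scaling by total count, and without wild-type library 1 only that of SBH2 was. PMP1 and SPC1 each lost the call without 2 of the libraries and OST5 without 3. The paralogue PMP2 had 3782 and 9538 counts in trf4Δ and 8458 and 10722 counts in the wild type (-0.76, SE 0.36, adjusted p = 0.1). Its trf4Δ libraries lay far apart, and without trf4Δ library 2 it was called lower (-1.58, adjusted p = 0.00226). VMA10, a subunit of the vacuolar proton pump, had 27551 and 17055 counts in trf4Δ and 19353 and 21095 counts in the wild type, with trf4Δ on both sides of the wild type.

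The cell wall genes held the most abundant member. CWP2, a mannoprotein, had a mean of 4938 CPM per kilobase and 83543 and 92408 counts in trf4Δ and 66053 and 66254 counts in the wild type (log2 fold change 0.18, SE 0.10, adjusted p = 0.167). The trf4Δ libraries were above the wild type after scaling, but the difference did not pass the test. CCW14, another mannoprotein, had 22547 and 23781 counts in trf4Δ and 14762 and 14650 counts in the wild type (0.42, SE 0.08, adjusted p = 0.00374). After CWP2, the highest levels per kilobase were those of NCW1 (1463 CPM), PMP1 (1414 CPM), HOR7 (1334 CPM) and YSY6 (1295 CPM). NCW1, also a cell wall protein, had 27023 and 27404 counts in trf4Δ and 14659 and 15424 counts in the wild type (0.62, SE 0.08, adjusted p = 0.000579), and YSY6 had 15688 and 15752 counts in trf4Δ and 12510 and 13225 counts in the wild type (0.05, SE 0.08, adjusted p = 0.595). The lowest levels per kilobase were those of HED1 (0.953 CPM), YMR075C-A (1.35) and SAE3 (1.84). HED1 and SAE3 act in meiotic recombination.

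In the nucleus, transcription and splicing list 0 of 10 were higher and 3 were lower. The median log2 fold change was -0.29 and became 0.03 under scaling by total count. NOP10, a core protein of the H/ACA ribonucleoproteins, had 8598 and 7450 counts in trf4Δ and 11107 and 10100 counts in the wild type (-0.64, SE 0.10, adjusted p = 0.00132). RPC10, a subunit common to the nuclear RNA polymerases, had 6443 and 8005 counts in trf4Δ and 9935 and 10077 counts in the wild type (-0.71, SE 0.11, adjusted p = 0.00131). PCC1, of the KEOPS complex that modifies transfer RNAs, had 1446 and 1922 counts in trf4Δ and 2337 and 2867 counts in the wild type (-0.86, SE 0.16, adjusted p = 0.0025). All 3 were lower in every pairing of libraries. Without trf4Δ library 2 the list held 5 decreases and 1 increase. SEM1, a proteasome lid subunit, did not pass (0.09, SE 0.09, adjusted p = 0.421), nor did the ubiquitin-like HUB1 (-0.36, SE 0.15, adjusted p = 0.0729) or NHP6B (0.28, SE 0.28, adjusted p = 0.404), a high-mobility-group protein whose frame shares 157 bases with YBR090C.

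Among the 9 listed genes of chromosome segregation and DNA repair, 4 were higher and 2 lower. The median log2 fold change was 0.18. Under scaling by total count it was 0.50, and 7 were higher and 1 lower. The DASH complex genes DAD3 and HSK3, whose products couple kinetochores to microtubules, were lower. DAD3 had 984 and 1224 counts in trf4Δ and 1594 and 1458 counts in the wild type (log2 fold change -0.70, SE 0.14, adjusted p = 0.00336), and HSK3 had 2916 and 3178 counts in trf4Δ and 3077 and 3954 counts in the wild type (-0.44, SE 0.13, adjusted p = 0.0202). A further DASH gene, DAD4, did not pass (0.18, SE 0.16, adjusted p = 0.365). Under scaling by total count HSK3 was not called (-0.12, adjusted p = 0.436) and DAD4 was called higher (0.50, adjusted p = 0.0347). WIP1, the CENP-W protein of the inner kinetochore, had 704 and 781 counts in trf4Δ and 404 and 440 counts in the wild type (0.58, SE 0.15, adjusted p = 0.0128). NBL1, of the Aurora kinase complex, changed by a like amount (0.57, SE 0.17, adjusted p = 0.0197). HUG1, an inhibitor of ribonucleotide reductase induced by DNA damage, had 190 and 224 counts in trf4Δ and 67 and 62 counts in the wild type (1.44, SE 0.26, adjusted p = 0.00218). SAE3 had 40 and 59 counts in trf4Δ and 13 and 7 counts in the wild type (2.06, SE 0.48, adjusted p = 0.00691). With so few wild-type counts, SAE3 met the limit on the summed count through trf4Δ and so had to be higher there. The 4 increases fell to 1 without wild-type library 2 and to 2 without wild-type library 1. HSK3 lost its call without either trf4Δ library or without wild-type library 2 (adjusted p = 0.0571 to 0.157).

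The translation and cytosol list had 1 of 6 higher and 3 lower and a median log2 fold change of -0.39 (-0.06 under scaling by total count, where none of the 3 decreases was called). TMA7, which associates with ribosomes, had 4387 and 5777 counts in trf4Δ and 7568 and 6451 counts in the wild type (-0.70, SE 0.15, adjusted p = 0.00431). KTI11, needed for diphthamide synthesis, had 660 and 592 counts in trf4Δ and 711 and 816 counts in the wild type (-0.52, SE 0.15, adjusted p = 0.0171). The paralogues LSO1 and LSO2, ribosome-associated small proteins, differed in sign. LSO1 had 58 and 83 counts in trf4Δ and 15 and 11 counts in the wild type (2.19, SE 0.41, adjusted p = 0.00256). LSO2 had 965 and 1317 counts in trf4Δ and 1721 and 1320 counts in the wild type (-0.65, SE 0.19, adjusted p = 0.018). With so few wild-type counts, LSO1 met the limit on the summed count through trf4Δ and so had to be higher there. Its difference in sign from LSO2 therefore says little about the pair. LSO2 was not called without trf4Δ library 1 or wild-type library 1 (adjusted p = 0.111 and 0.12), and KTI11 was not called without trf4Δ library 2 or wild-type library 2 (adjusted p = 0.0537 and 0.158). IGO2 and MAK31, a subunit of an N-terminal acetyltransferase, did not pass (-0.25 and -0.12).

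**Figure D5:**
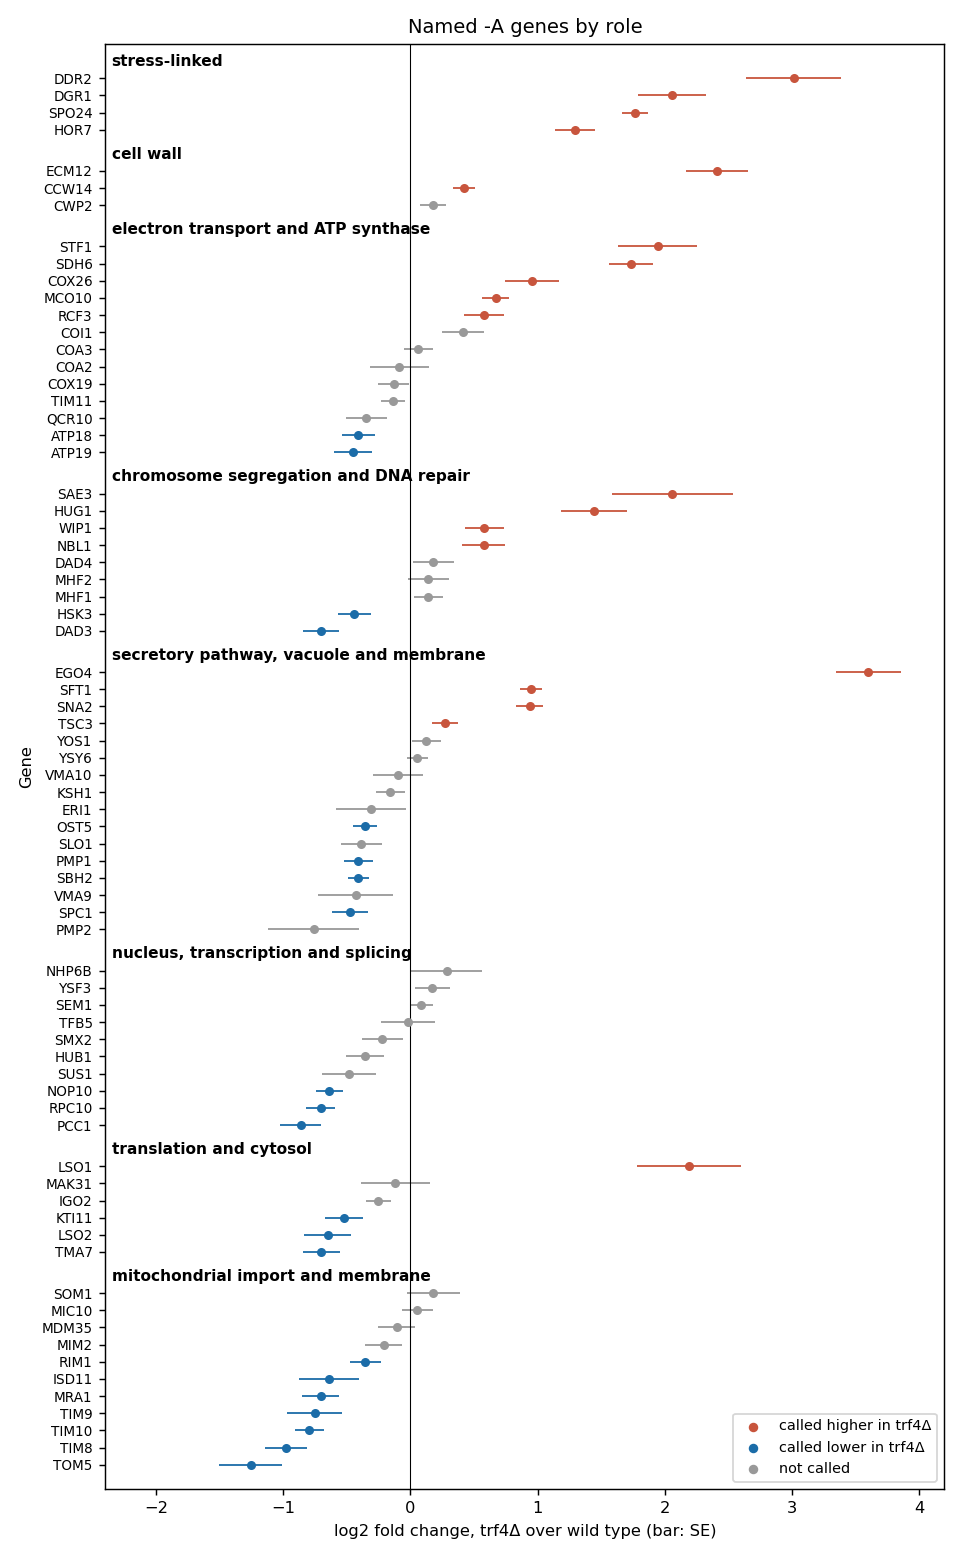
Points are log2 fold changes (trf4Δ over wild type) of the 72 -A genes in the 8 role lists, with bars of 1 SE and colour for the call at an adjusted p under 0.05. Genes of the stress-linked list lie between 1.29 and 3.01, while those of the mitochondrial import and membrane list lie between -1.26 and 0.18.

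Libraries of the same genotype agreed less closely for the members than for other features, as their lower counts allow. The median size of the log2 difference between the 2 libraries was 0.32 in trf4Δ and 0.21 in the wild type for the members, and 0.13 and 0.11 over all features. A gap of at least 2-fold between the libraries of a genotype occurred in 18 members (6.16%) in trf4Δ and in 10 members (3.42%) in the wild type, against 1.35% and 0.581% of all features. The extreme case among well-counted members was MEO1 (YBR126W-A), named after its values were seen. It had 1070 and 275 counts in trf4Δ and 123 and 94 counts in the wild type (2.39, SE 0.57, adjusted p = 0.00793), so both trf4Δ libraries were above the wild type but differed from each other more than the lower of them did from the wild type. Its log2 fold change came to 1.10 without trf4Δ library 1 and 3.06 without trf4Δ library 2.

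Some members lie beside noncoding genes. YOL097W-A is 36 bases from the snoRNA gene SNR58, which lies on the opposite strand and changed by 4.50. The ORF had 399 and 682 counts in trf4Δ and 317 and 280 counts in the wild type (log2 fold change 0.62, SE 0.26, adjusted p = 0.0752), and its libraries were apart but the difference did not pass. Without trf4Δ library 1 it was called higher (0.96, adjusted p = 0.00847), as it was under scaling by total count (0.94, adjusted p = 0.0178). Of the 4 members that overlap an annotated Ty1 long terminal repeat, 3 were higher, against 31.3% of all features. The median level of the 4 was 3.08 CPM, and 60.5% of features between 1 and 10 CPM were higher. Among the 3, YDR034C-A met the limit on the summed count through trf4Δ and so had to be higher. Only YER138W-A of the 4 had a window of 76 bases that recurs in the genome, over 27.6% of its length.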

How the data were processed

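RNA of 2 trf4Δ and 2 wild-type libraries was measured, grouped by the genotype in the labels. The authors deposited whole-number counts per feature, not normalised, in a table with 4 columns. Per the submitters' processing notes, STAR 2.5.3 and the build sacCer3 were used. The counting program, the annotation and the use of strand are not given in the sources used here. The study linked to the series describes other samples and served for style only. Libraries held 53516242 to 57964567 counts, so that 3 counts correspond to 0.0518 to 0.0561 CPM (counts per 1000000) before scaling.

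The test was edgeR 4.0.16 under R 4.3.3 (filterByExpr, TMM, glmQLFit and glmQLFTest, two-sided, no covariates). TMM factors were 1.13 and 1.11 in trf4Δ libraries, and 0.904 and 0.886 in wild-type libraries. P-values were Benjamini-Hochberg adjusted over 6372 features with a threshold of 0.05. Standard errors (SE) were computed as |log2 fold change| over the root of the F statistic. Scripts were tested on simulated data. Replicate gaps used a pseudocount of 0.1 CPM. With 2 libraries against 2 the smallest two-sided exact permutation p is 0.333, so no such test is given. Names, coordinates, lengths and sequences came from RefSeq R64, the assembly that sacCer3 represents, and the count table itself holds no coordinates.

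The members, the role lists and the rule for named genes were chosen with earlier results of these data known. The rule names the 8 largest increases and 6 largest decreases among members that passed the test, averaged 50 or more counts and had genotypes without overlap. It adds up to 5 members of each role list with the highest level per length and up to 3 with the smallest adjusted p, the 5 highest and 3 lowest levels, the members at the count limit, and up to 4 overlapping members with the largest change. Other role-list members and those so marked were added after their values were seen. YER145C-A, YMR316C-A, YOL097W-A and YOL155W-A were also named outside the rule, with results known. Alternatives were other scalings, filters, DESeq2 1.42.0, other count limits for members, and leaving out each library.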

Additional observations from a re-analysis of the deposited data

How the results depend on the processing

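Counts of members called and their median kept their direction under size factors of the DESeq2 type, DESeq2, a minimum of 10 counts per library, omission of the filter on low counts, a summed count of 50 or more, and without overlapping members. Scaling by total count alone moved the median of all features to 0.34 and gave 171 members higher and 18 lower (90.5% of calls higher, against 77.1%), with a median log2 fold change of 0.86, and 3162 features higher and 739 lower against 1992 and 1840. Relative to all features the median of the members was 0.53 under both scalings. With a summed count of 500 or more, 82 of 202 members were higher and the median was 0.20. With 50 or more counts in each genotype, an alternative chosen after seeing the data, the median was 0.38 and 67 members were at least 2-fold higher. Leaving out a library gave 98 to 134 members higher, 28 to 44 lower, 86 to 105 at least 2-fold higher, a median of 0.48 to 0.58, 1550 to 1794 features higher and 1393 to 1648 lower. A lone remaining library is then assumed to vary like those of the other genotype.

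Of 64 named members called, 21 lost the call without some library and 16 under another setting, and 0 changed sign. Sign changes were limited to named members not called. Under scaling by total count they were MAK31 (0.20), TIM11 (0.18), VMA10 (0.23), IGO2 (0.069), YMR075C-A (0.29), TFB5 (0.30), SMX2 (0.10), MDM35 (0.21), COX19 (0.19), MIM2 (0.11), KSH1 (0.16), ERI1 (0.0085) and COA2 (0.23). On leaving out single libraries the values ranged over both signs for MAK31 (-0.60 to 0.24), DAD4 (-0.024 to 0.36), VMA10 (-0.48 to 0.21), YMR075C-A (-0.26 to 0.26), NHP6B (-0.22 to 0.65), MIC10 (-0.051 to 0.18), TFB5 (-0.39 to 0.27), SOM1 (-0.12 to 0.43), COA3 (-0.0046 to 0.13), MDM35 (-0.31 to 0.063), ERI1 (-0.81 to 0.060) and COA2 (-0.49 to 0.22). The cause was not tested. No paired analysis was possible because the labels give the libraries no replicate numbers shared between genotypes. Low counts limit precision, since the median member had 5.42 CPM.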
